A study of Mus musculus with 4 samples.

Results

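The genes described here are the enzymes of glycolysis together with the glucose and lactate transporters at its ends, 31 genes of 55414 in the count matrices. They were chosen by gene symbol, and all 31 were found. They are the glucose transporters Slc2a1 and Slc2a3, the hexokinases Hk1, Hk2 and Hk3, Gpi1, the phosphofructokinases Pfkl, Pfkm and Pfkp, and the regulatory enzymes Pfkfb2, Pfkfb3 and Pfkfb4. Next come Aldoa, Aldoc, Tpi1, Gapdh, Pgk1, Pgam1, the enolases Eno1, Eno2 and Eno3, and the pyruvate kinases Pkm and Pklr. The list ends with Ldha, Ldhb, the lactate transporters Slc16a1 and Slc16a3, the pyruvate dehydrogenase kinases Pdk1 and Pdk3 with their target Pdha1, and Fbp1. Single-cell RNA was measured in liver cells of mice aged 2 months in 4 groups. These were S/S mice injected intraperitoneally with 500 ng TNF, an inflammatory cytokine, and sampled 3 h later, A/A mice given the same dose, untreated S/S mice (baseline) and untreated A/A mice. The sources used here do not spell out what the alleles A and S are. Each group was 1 library of pooled cells from 2 of the 8 mice, enriched for non-parenchymal cells, cleared of dead cells on Ficoll and sorted for macrophages and live cells. The matched question is how the genotypes differ with and without TNF.

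Glycolysis splits glucose into pyruvate in the cytosol and yields ATP without oxygen, and lactate dehydrogenase then turns pyruvate into lactate, which leaves the cell. Most steps are run by a choice of isozymes from separate genes, which differ in affinity, regulation and tissue. Macrophages and neutrophils use the pathway heavily when activated, endothelial cells use it as a main source of ATP, and hepatocytes can run it in reverse to make glucose, with fructose-bisphosphatase Fbp1 as a dedicated enzyme. Many of these genes, Slc2a1, Hk2, Pgk1, Ldha, Slc16a3 and Pdk1 among them, are textbook targets of the hypoxia-inducible factors.

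The S/S TNF, A/A TNF, S/S baseline and A/A baseline libraries held 5848, 6531, 4983 and 3230 barcodes and between 21088801 and 54999906 UMIs (unique transcript molecules). Cells were assigned to classes by fixed marker genes, and a class name ends in "-like" because it rests on those markers alone. In the 4 libraries 59.6, 67.8, 72.6 and 81.8% of the kept barcodes took a class, and in every class compared between genotypes no defining marker of its own was at 0. Any pair of libraries shared between 4 and 12 barcodes. S/S cells carried more red-cell RNA: the 14 erythroid markers together made up 1622 CPM in endothelial-like cells of S/S TNF mice, against 61.3 CPM in A/A TNF mice, and likewise in every class compared. Their part in any result below was not tested. With 1 library per group, no difference was tested. Brackets give exact 95% intervals, which cover counting error only and not the differences between mice or preparations, and UMIs were counted after PCR. S/S was compared with A/A in 9 classes after TNF and in 7 at baseline, since monocyte-like cells of A/A baseline numbered 33 and endothelial-like cells of S/S baseline 22, below the minimum of 50.

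Levels are CPM, the usual counts-per-million scale, here the UMIs of a gene over all UMIs of the class in that library. A 3' UMI counts a transcript once whatever its length, so CPM of different genes can be set side by side without division by length. Of the 9 classes compared between genotypes, monocyte-like and hepatocyte-like cells gave the members the largest shares of UMIs after TNF, 0.770% in S/S TNF and 0.562% in A/A TNF for the monocyte-like and 0.582 and 0.566% for the hepatocyte-like cells. B cell-like cells held 0.175, 0.160, 0.132 and 0.0872% in S/S TNF, A/A TNF, S/S baseline and A/A baseline. These were the lowest shares among these classes other than in A/A TNF, where endothelial-like cells were lower. In Kupffer-like cells, the resident liver macrophages, the share was 0.368, 0.242, 0.356 and 0.247%. Endothelial-like cells held 0.355% in S/S TNF, against 0.157% in A/A TNF and 0.12% in A/A baseline. In each of the 9 classes after TNF and each of the 7 at baseline the S/S library held the larger share. Over all barcodes Gapdh was the most abundant member, with 118542 UMIs, and the rarest were the enolase Eno2 with 71, the kinase Pfkfb2 with 134, the liver pyruvate kinase Pklr with 157 and the muscle phosphofructokinase Pfkm with 304.

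Most members were somewhat higher in S/S cells, at both time points and in nearly every cell class. A log2 ratio was computed on CPM + 1 where the pair of libraries held at least 20 UMIs of the gene. Between 17 and 25 members reached that in a class after TNF and between 15 and 25 at baseline. Eno2 and Pfkfb2 reached it in no S/S against A/A pair. The members' median ratio was above that of all genes compared in 9 of 9 classes after TNF, by most in endothelial-like cells (1.31 against -0.08). It was above in 6 of 7 classes at baseline, the exception being pDC-like cells (plasmacytoid dendritic cells; 0.11 against 0.12). Rn18s-rs5, an rRNA gene that enters the class totals, took 13.9, 14.3, 6.19 and 16.7% of UMIs in S/S TNF, A/A TNF, S/S baseline and A/A baseline, so the genotypes were further apart in it at baseline. With mitochondrial genes, Rn18s-rs5 and globins taken out of the totals, the medians of all genes at baseline ran from -0.21 in Kupffer-like to 0.01 in hepatocyte-like cells, against -0.03 and 0.30 with them. The members' median then stayed above that of all genes in 9 of 9 classes after TNF and in 6 of 7 at baseline. Gapdh was higher in S/S with an interval above 0 in 9 of 9 classes after TNF, at ratios of 0.18 to 0.90, and in 7 of 7 at baseline, at 0.81 to 1.32. Because 1 pair of libraries underlies all classes of a time point, the classes are not independent.

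**Figure D1:**
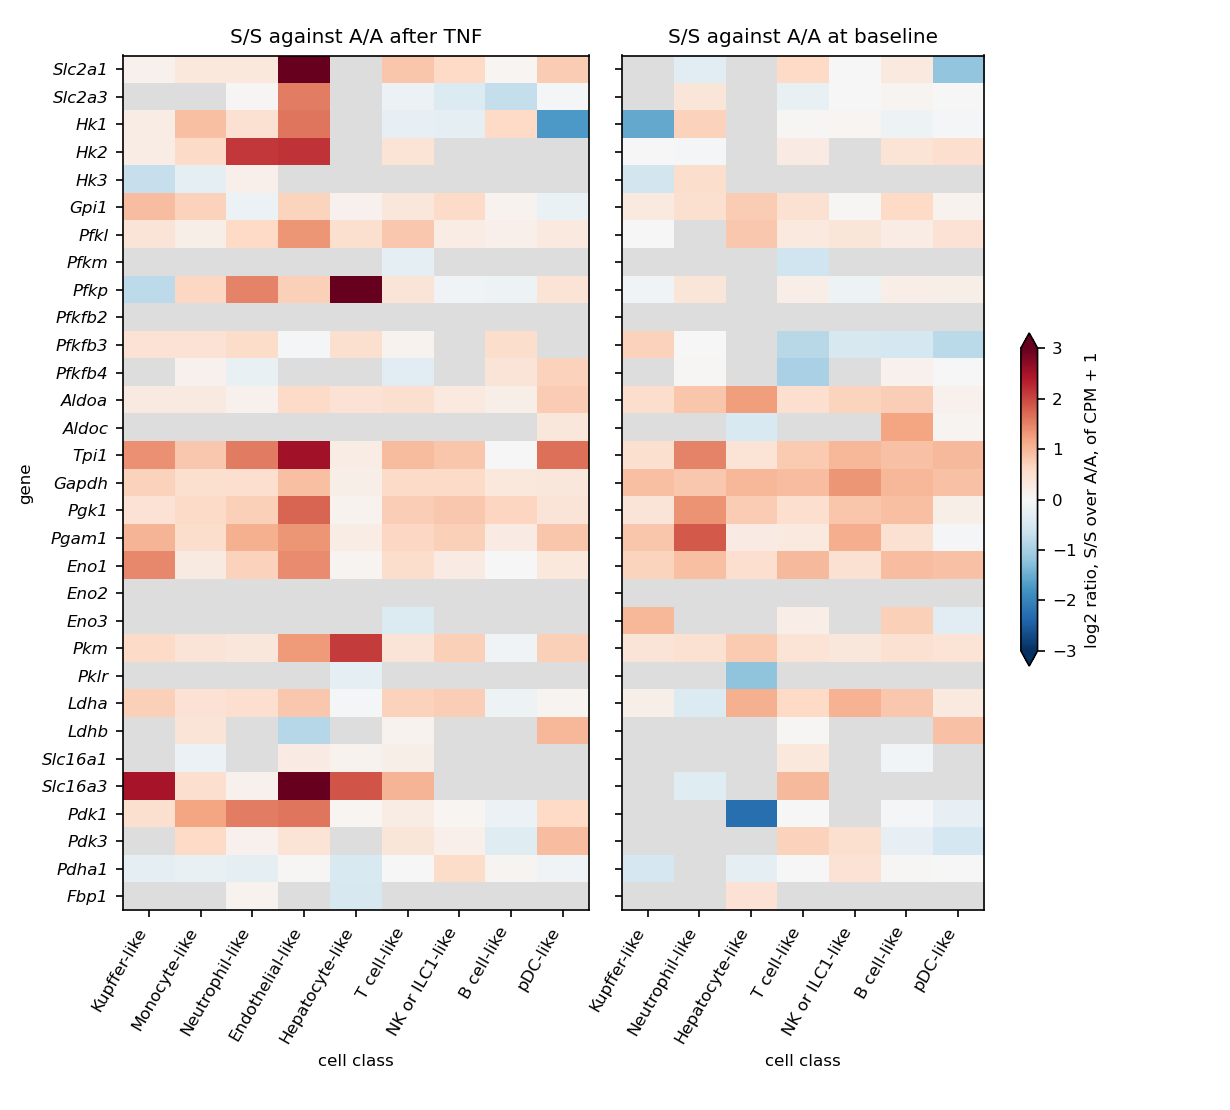
Log2 ratio of S/S over A/A (on CPM + 1) for the 31 members (down the page, in pathway order) in each cell class (across), after TNF on the left and at baseline on the right. Red is higher in S/S, blue is lower, the scale ends at 3 each way, and grey marks pairs with under 20 UMIs. Most cells are red, deepest for Slc2a1 and Slc16a3 in endothelial-like cells after TNF.

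Glucose enters through facilitative transporters, and the isoform depended on the cell class. Slc2a1 (GLUT1) is the widespread basal transporter and Slc2a3 (GLUT3) a high-affinity form. Of the UMIs of both genes, Slc2a1 made up 99.3% in S/S TNF and 99.0% in A/A TNF monocyte-like cells and 87.4% in S/S baseline. Endothelial-like cells used it too, at 96.1% in S/S TNF and 88.1% in A/A TNF. Neutrophil-like cells held much of both: Slc2a1 was at 298, 241, 74.7 and 95.4 CPM and Slc2a3 at 205, 201, 359 and 277 CPM in S/S TNF, A/A TNF, S/S baseline and A/A baseline. So Slc2a1 led in the neutrophil-like cells of both TNF libraries and Slc2a3 in both baseline libraries. The TNF and baseline libraries were counted with different software versions. Differences between them in isozyme share or level, here and below, cannot be told apart from the version. T cell-like, NK or ILC1-like and pDC-like cells leaned to Slc2a3 at baseline, where Slc2a1 was 12.4 to 35.8% of the pair. In T cell-like cells Slc2a1 reached 31.8 CPM in S/S TNF against 17.3 CPM in A/A TNF, a log2 ratio of 0.84 [0.43, 1.25], and its share of the pair was 51.5% against 33.6%. After TNF the Slc2a1 ratio was positive in 8 of 8 classes, with an interval above 0 in 4, whereas Slc2a3 was positive in 2 of 6. Hepatocyte-like cells held 16, 3, 0 and 0 UMIs of Slc2a1, too few to compare.

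Hexokinases trap glucose as glucose 6-phosphate. Hk1 is the housekeeping form, Hk2 the inducible one, and Hk3 a form of myeloid cells. Hk2 led in monocyte-like cells, with 81.9, 81.6 and 79.1% of hexokinase UMIs in S/S TNF, A/A TNF and S/S baseline. Hk1 led in T cell-like cells at 80.4, 87.9, 88.6 and 90.3% in S/S TNF, A/A TNF, S/S baseline and A/A baseline. Kupffer-like cells mixed Hk2 and Hk3. There Hk2 held 60.1% in S/S TNF against 48.1% in A/A TNF, and 55.9% in S/S baseline against 42.2% in A/A baseline, so its share was larger in S/S both times. In neutrophil-like cells the leading form differed between libraries. Hk2 held 51.1% of their hexokinase UMIs in S/S TNF, but Hk1 led A/A TNF with 39.2%, and Hk3 led both baseline libraries with 51.2 and 45.2% in S/S and A/A. Hk2 itself stood at 98.4 CPM in S/S TNF, 21.7 in A/A TNF, 84.7 in S/S baseline and 88.3 in A/A baseline neutrophil-like cells. The A/A TNF library was the lowest, though only libraries of the same treatment share a software version. In endothelial-like cells of A/A baseline mice Hk1 was 89.5% of the family, and Hk2 held 3 UMIs. Gpi1, which turns glucose 6-phosphate into fructose 6-phosphate, has no isozyme in the list and was higher in S/S in 7 of 9 classes after TNF and 7 of 7 at baseline, with values between 51.6 and 334 CPM.

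Phosphofructokinase commits sugar to glycolysis, and its activator fructose 2,6-bisphosphate is made by the bifunctional PFKFB enzymes. The platelet-type Pfkp led in T cell-like cells (66.5, 71.2, 77.7 and 76.7% in S/S TNF, A/A TNF, S/S baseline and A/A baseline) and in NK or ILC1-like cells (72.9, 78.0, 85.1 and 87.6%). The liver-type Pfkl led in endothelial-like cells, with 61.8% in S/S TNF and 52.1% in A/A TNF. Kupffer-like cells were led by Pfkl in S/S TNF (53.4%) but by Pfkp in A/A TNF (66.2%). Pfkp was at 41.7 CPM in S/S TNF and 72.5 CPM in A/A TNF Kupffer-like cells, a log2 ratio of -0.78 [-1.35, -0.24], against the direction of most members. The muscle-type Pfkm reached 20 UMIs in an S/S against A/A pair only in T cell-like cells. Among the PFKFB genes, Pfkfb3, the form with the highest kinase activity, held 97.4% in S/S TNF and 98.6% in A/A TNF endothelial-like cells. Pfkfb4 held 41.4, 54.5, 77.0 and 76.7% in neutrophil-like cells of S/S TNF, A/A TNF, S/S baseline and A/A baseline. Pfkfb3 differed from most members at baseline. It was lower in S/S in 4 of 6 classes, with 3 intervals below 0, and higher in 2, by up to 0.68 in Kupffer-like cells with no interval above 0. In T cell-like cells it was at 40.1 CPM in S/S baseline and 72.5 CPM in A/A baseline (log2 ratio -0.84 [-1.07, -0.60]).

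**Figure D2:**
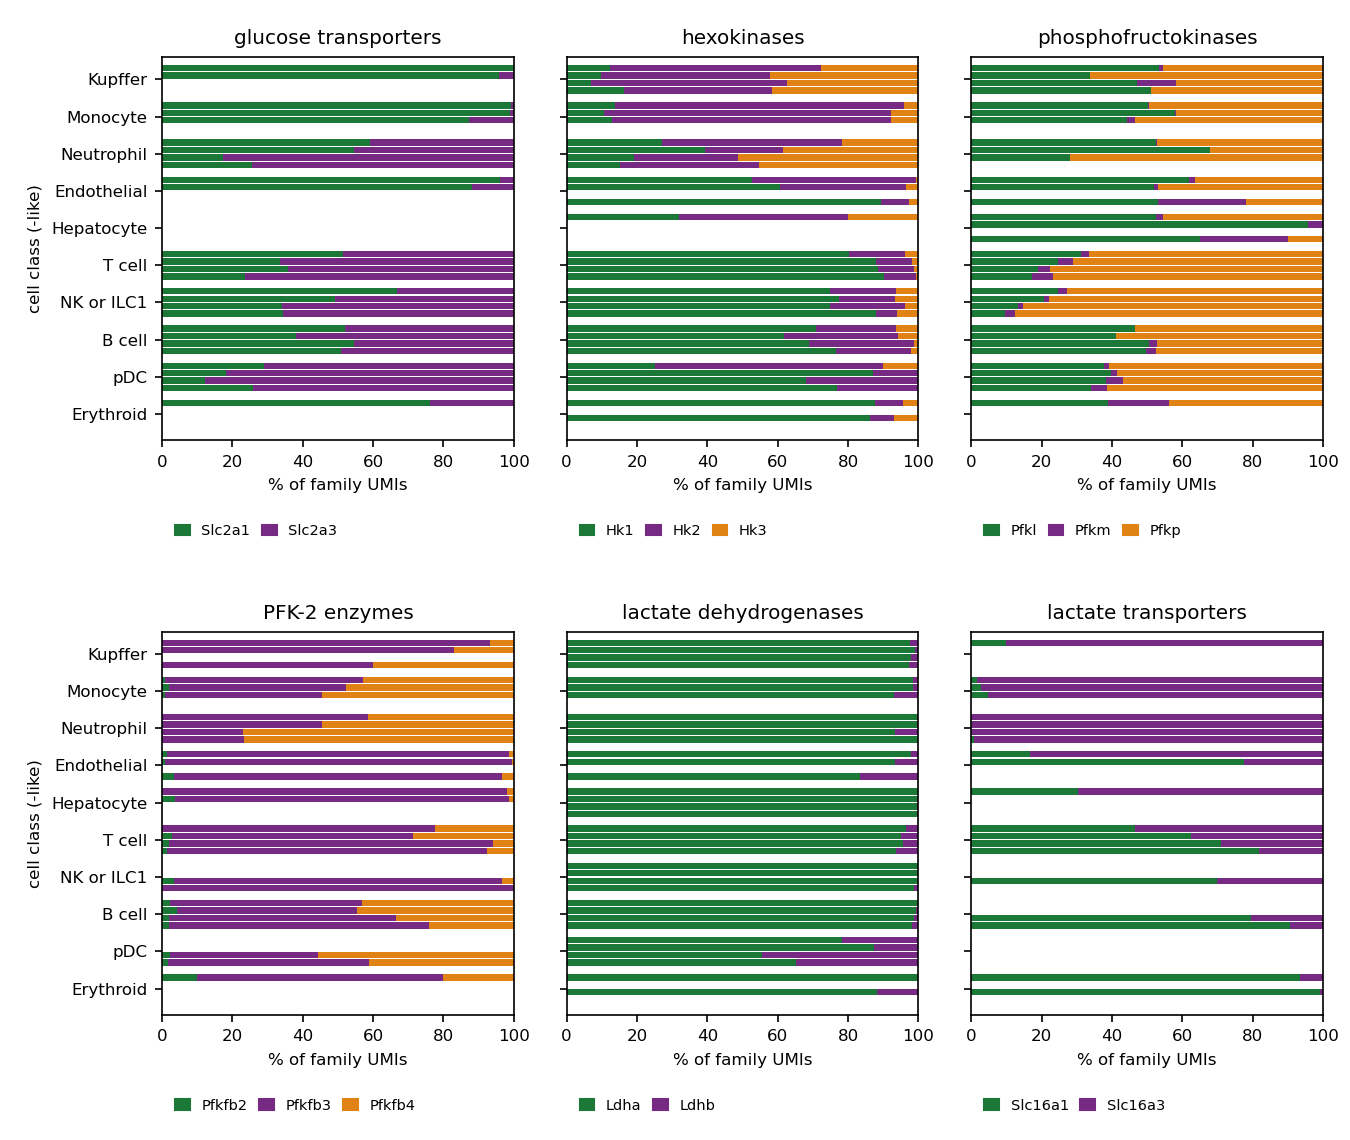
Share of each isozyme (% of the UMIs of its family) in 10 cell classes for 6 families. Within a class the bars run from top to bottom as S/S TNF, A/A TNF, S/S baseline and A/A baseline, and a bar is blank with under 50 cells or under 20 UMIs of the family. Transporter, hexokinase and phosphofructokinase use differs by class, whereas Ldha fills nearly all of the lactate dehydrogenase bars outside pDC-like cells.

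Below phosphofructokinase most steps rested on 1 dominant gene. Aldoa splits fructose 1,6-bisphosphate and held at least 86.0% of Aldoa and Aldoc UMIs in every class and library shown other than hepatocyte-like cells of A/A baseline, where it held 64.4%. Aldoc stood out in pDC-like cells, at 16.1, 12.6, 17.9 and 17.0 CPM in S/S TNF, A/A TNF, S/S baseline and A/A baseline. Eno1 was the enolase of all classes, and Pkm the leading pyruvate kinase of all but hepatocyte-like cells, where the leader differed between libraries. In hepatocyte-like cells Pklr, the liver isozyme, held 31.7% of the pair in S/S TNF against 71.7% in A/A TNF. The log2 ratio of Pklr itself was -0.27, with an interval spanning 0, whereas Pkm had 54 UMIs in S/S TNF and 13 in A/A TNF. Tpi1, which interconverts the triose phosphates, was higher in S/S in 9 of 9 classes after TNF and 7 of 7 at baseline, its interval lying above 0 in 7 and 7. Pgk1, the first ATP-yielding enzyme, was higher in 9 of 9 and 7 of 7, with 7 and 6 intervals above 0. Pgam1, the phosphoglycerate mutase, was higher in 9 of 9 and 6 of 7. Aldoa was higher in 9 of 9 and 7 of 7, Eno1 in 8 of 9 and 7 of 7, and Pkm in 8 of 9 and 7 of 7. A near-copy of Eno1, the gene Eno1b, held 276, 287, 72 and 20 UMIs in S/S TNF, A/A TNF, S/S baseline and A/A baseline over all barcodes, and reads of the pair may be split between them.

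**Figure D3:**
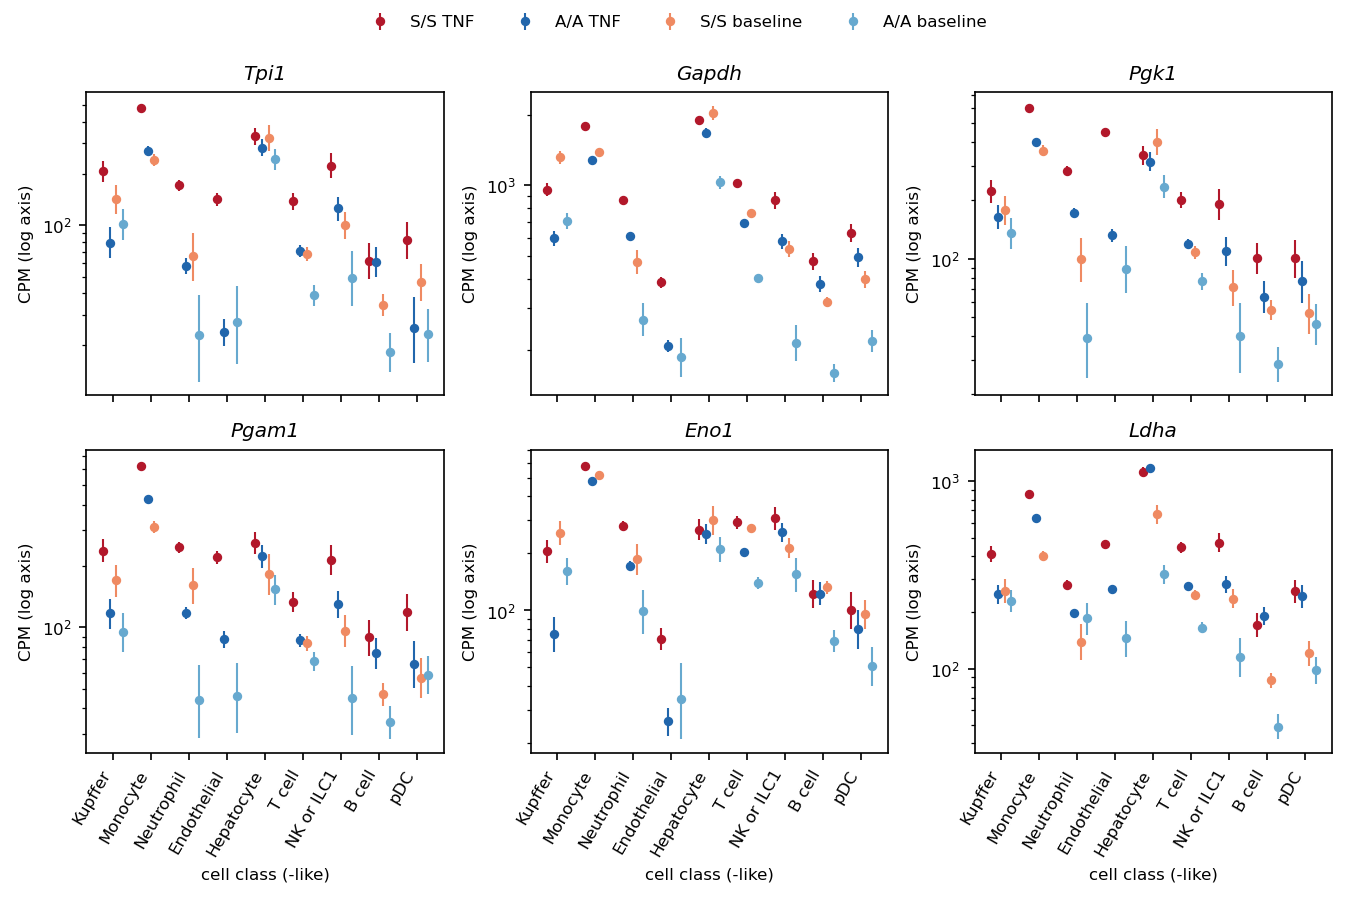
CPM (log axis) of Tpi1, Gapdh, Pgk1, Pgam1, Eno1 and Ldha by cell class in the 4 libraries, with 95% Poisson bars. S/S points lie above A/A points of the same treatment in most classes, and Gapdh reaches 2039 CPM in hepatocyte-like cells of S/S baseline.

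Lactate is made by Ldha, the muscle-type subunit, and Ldhb, the heart-type one that favours the return to pyruvate. Ldhb was a sizeable share in pDC-like cells, where it held 21.7, 12.7, 44.6 and 34.8% in S/S TNF, A/A TNF, S/S baseline and A/A baseline. Its level there was 71.9, 35.4, 97.4 and 52.4 CPM, so S/S was higher than A/A at both times (log2 ratios 1.0 [0.36, 1.66] after TNF and 0.88 [0.47, 1.30] at baseline). Ldha was higher in S/S in 7 of 9 classes after TNF and 6 of 7 at baseline. Of the lactate transporters, Slc16a3 (MCT4) is the low-affinity export form and Slc16a1 (MCT1) the widespread one. Slc16a3 was 99.3 to 100% of the pair in neutrophil-like cells and 95.3 to 98.3% in monocyte-like cells. T cell-like cells held 53.3, 37.6, 29.1 and 18.2% Slc16a3 in S/S TNF, A/A TNF, S/S baseline and A/A baseline. Erythroid-like cells were nearly all Slc16a1, at 93.5% in S/S TNF and 99.1% in S/S baseline. After TNF Slc16a3 was higher in S/S in 6 of 6 classes, with 6 intervals above 0 and ratios of 0.12 in neutrophil-like to 4.18 in endothelial-like cells. Slc16a1 had no interval away from 0 in endothelial-like cells after TNF, at 32.0 CPM in S/S TNF and 26.9 CPM in A/A TNF (0.24 [-0.12, 0.60]).

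Pyruvate dehydrogenase passes pyruvate to the mitochondrial citric acid cycle, and the kinases Pdk1 and Pdk3 switch it off by phosphorylating its subunit Pdha1. Pdha1 itself was positive in 4 of 9 classes after TNF, and no interval lay away from 0. In T cell-like cells it stood at 65.9 CPM in both TNF libraries. Pdk1 was higher in S/S after TNF in 8 of 9 classes, with 3 intervals above 0, and over 2-fold higher in monocyte-like, neutrophil-like and endothelial-like cells. At baseline it was positive in 1 of 4 classes. In hepatocyte-like cells it was then at 4 UMIs (9.67 CPM) in S/S baseline and 44 UMIs (49.8 CPM) in A/A baseline. Pdk3 led Pdk1 in monocyte-like cells, where Pdk1 held 45.2, 35.0 and 29.8% of the pair in S/S TNF, A/A TNF and S/S baseline. Fbp1 was a gene of hepatocyte-like cells, at 871, 1217, 1021 and 757 CPM in S/S TNF, A/A TNF, S/S baseline and A/A baseline, against at most 6.74 CPM in the other compared classes. It was lower in S/S after TNF and higher in S/S at baseline.

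Endothelial-like cells showed the widest gap between the genotypes. After TNF, genes of glucose uptake, sugar trapping, lower glycolysis and lactate export were among those higher in S/S, and 20 of 22 ratios were positive. Of 22 members compared, 12 were over 2-fold higher in S/S and none over 2-fold lower. Of all genes compared, 4.11% were over 2-fold higher and 3.66% over 2-fold lower. The 12 were Slc2a1, Slc2a3, Hk1, Hk2, Pfkl, Tpi1, Pgk1, Pgam1, Eno1, Pkm, Slc16a3 and Pdk1. The lactate exporter Slc16a3 had 525 UMIs in S/S TNF and 42 in A/A TNF, or 160 and 7.86 CPM, a log2 ratio of 4.18 [3.77, 4.61]. The transporter Slc2a1 had 818 and 111 UMIs in S/S TNF and A/A TNF, or 249 and 20.8 CPM, a ratio of 3.52 [3.25, 3.81]. Both were barely detected in A/A baseline, with 2 UMIs (3.41 CPM) each, so S/S TNF stood far above both A/A libraries. No single barcode carried these values: the one with most Slc16a3 held 8.76% of its UMIs in S/S TNF and 7.14% in A/A TNF, and for Slc2a1 the shares were 5.13 and 3.60%.

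Further along the pathway in these endothelial-like cells, Hk2 was at 97.5 CPM in S/S TNF, 20.8 in A/A TNF and 5.12 in A/A baseline, a ratio after TNF of 2.18 [1.87, 2.49]. Tpi1 was at 142, 23.8 and 27.3 CPM in the same libraries, a ratio of 2.53 [2.25, 2.81], and Pgk1 at 449, 132 and 88.7 CPM, a ratio of 1.76 [1.63, 1.89]. For Tpi1 the A/A libraries, counted with different software versions, were alike with and without TNF, and S/S TNF was above both. S/S baseline had too few such cells (22) to compare, so whether S/S was also higher without TNF is not known here. In the 7 classes compared at baseline, Tpi1 was higher in S/S. Pdk1, which switches off pyruvate dehydrogenase, was at 54.8 CPM in S/S TNF and 17.4 CPM in A/A TNF, a ratio of 1.60. Steps with smaller ratios were Gapdh (387 and 207 CPM in S/S TNF and A/A TNF, 0.90), Ldha (461 and 265 CPM, 0.80), Pfkp (0.72), Gpi1 (0.66) and Aldoa (0.56). Pfkfb3 did not follow them: it was at 161 CPM in S/S TNF and 168 CPM in A/A TNF, a ratio of -0.06 [-0.22, 0.10], while A/A baseline held 47.8 CPM. Ldhb was the 1 member with an interval below 0, at 10.1 CPM in S/S TNF and 18.9 CPM in A/A TNF (-0.85 [-1.40, -0.31]). In all, 17 intervals lay above 0.

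**Figure D4:**
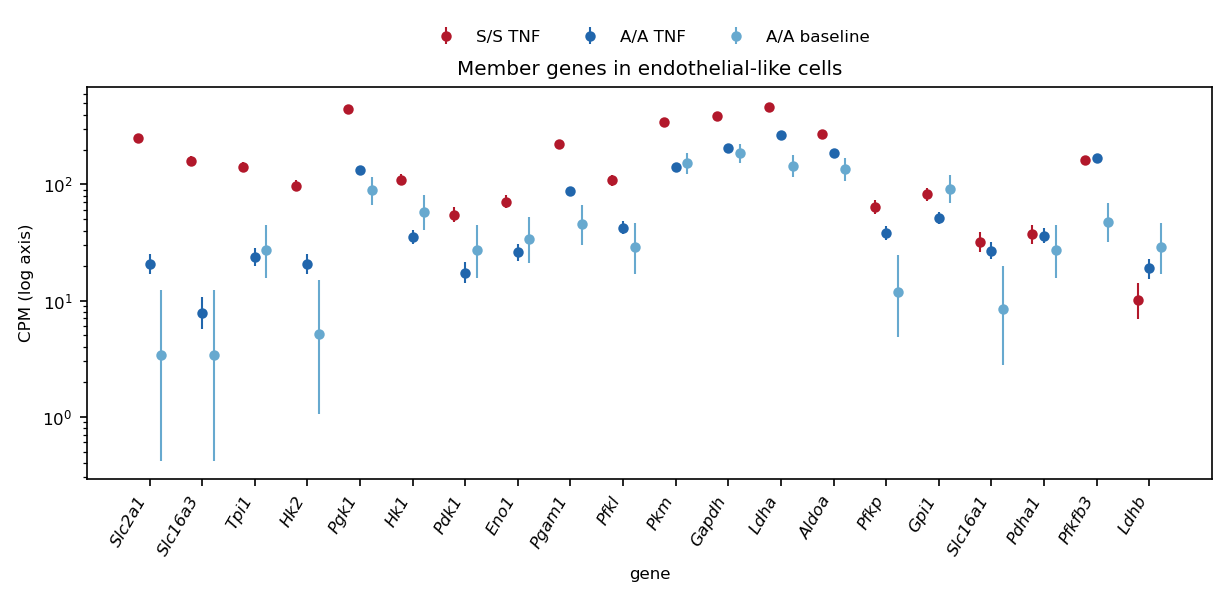
CPM of 20 members in endothelial-like cells of S/S TNF, A/A TNF and A/A baseline, with 95% Poisson bars. S/S baseline is not drawn because it held 22 such cells. S/S TNF lies above both A/A libraries for Slc2a1 and Slc16a3, and the TNF libraries overlap for Pfkfb3.

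The depth of the endothelial-like cells differed, with a median of 6055 UMIs per cell in S/S TNF and 2962 in A/A TNF. Within each of 4 ranges of depth Slc2a1, Slc16a3, Tpi1 and Pgk1 were higher in S/S TNF, with intervals above 0. For Slc2a1 in cells under 2000 UMIs, S/S TNF held 151 CPM and A/A TNF 20.1 CPM, and in cells of 10000 UMIs or more 259 and 25.6 CPM. The 4 log2 ratios of Slc2a1 were 2.84, 4.51, 3.75 and 3.29 from the shallowest range to the deepest, those of Slc16a3 4.27, 4.72, 3.68 and 4.14, and those of Tpi1 2.37, 1.43, 2.71 and 2.66. Pgk1 gave 1.76, 1.19, 2.19 and 1.65, whereas Pfkfb3 stayed near 0 at 0.36, 0.22, -0.26 and -0.14. Hk2 was at 1.33 [-0.28, 2.86] under 2000 UMIs, an interval spanning 0, and at 2.37, 2.455 and 2.09 in the deeper ranges. Counts in A/A TNF were low in the shallow ranges. Under 2000 UMIs it held 8 UMIs of Slc2a1 and 1 of Slc16a3, and from 2000 to under 5000 UMIs 7 and 3. The 11 neutrophil markers, of the class richest in Slc2a1 and Slc16a3, summed to 524 CPM in S/S TNF and 572 CPM in A/A TNF endothelial-like cells, with 1 marker at 0 in each. The 10 monocyte markers summed to 89.2 CPM in S/S TNF and 59.3 CPM in A/A TNF, with none at 0. The 12 endothelial markers summed to 6358 and 7166 CPM in the same libraries. In erythroid-like cells of S/S TNF, Slc2a1 was at 3.82 CPM and Slc16a3 at 3.34 CPM. The part of depth or RNA from other cells in the endothelial-like ratios was not tested.

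**Figure D5:**
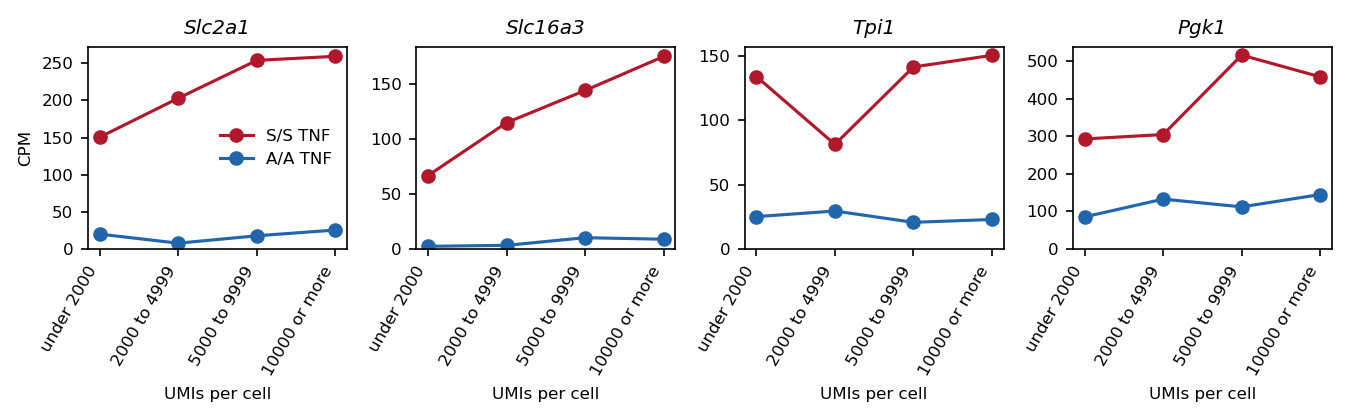
CPM of Slc2a1, Slc16a3, Tpi1 and Pgk1 in endothelial-like cells after TNF, split by UMIs per cell, with S/S TNF in red and A/A TNF in blue. The S/S points lie above the A/A points in all 4 depth ranges for each gene.

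The 5 members with the largest endothelial ratios among those with at least 50 UMIs, Slc16a3, Slc2a1, Tpi1, Hk2 and Pgk1, are shown by promoter because all were over 2-fold higher in S/S. Each window runs from 250 bases before to 50 bases after the RefSeq start site, 5′ to 3′ on the gene's strand, in build GRCm38.p6. This is an earlier build than the one the reads were mapped to, and no coordinate was carried between them. Capitals mark ACGTG, the core letters of the hypoxia response element, or CACGT, the same letters on the opposite strand. They overlap the E-box CACGTG, which counts once on each strand. The windows are chr11:120948817-120949116 on the plus strand for Slc16a3, chr4:119108495-119108794 on the plus strand for Slc2a1, chr6:124814109-124814408 on the minus strand for Tpi1, chr6:82774405-82774704 on the minus strand for Hk2, and chrX:106186850-106187149 on the plus strand for Pgk1.
Slc16a3: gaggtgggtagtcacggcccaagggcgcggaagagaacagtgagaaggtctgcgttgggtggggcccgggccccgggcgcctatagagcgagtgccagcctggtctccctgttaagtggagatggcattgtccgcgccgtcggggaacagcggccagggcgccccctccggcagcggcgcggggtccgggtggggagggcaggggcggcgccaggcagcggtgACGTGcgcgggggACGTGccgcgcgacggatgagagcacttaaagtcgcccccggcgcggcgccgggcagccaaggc
Slc2a1: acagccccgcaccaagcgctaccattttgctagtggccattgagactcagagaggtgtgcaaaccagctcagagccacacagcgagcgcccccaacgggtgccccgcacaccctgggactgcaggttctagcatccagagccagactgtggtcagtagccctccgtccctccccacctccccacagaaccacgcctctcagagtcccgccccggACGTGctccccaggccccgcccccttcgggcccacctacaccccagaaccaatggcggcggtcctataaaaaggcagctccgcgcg
Tpi1: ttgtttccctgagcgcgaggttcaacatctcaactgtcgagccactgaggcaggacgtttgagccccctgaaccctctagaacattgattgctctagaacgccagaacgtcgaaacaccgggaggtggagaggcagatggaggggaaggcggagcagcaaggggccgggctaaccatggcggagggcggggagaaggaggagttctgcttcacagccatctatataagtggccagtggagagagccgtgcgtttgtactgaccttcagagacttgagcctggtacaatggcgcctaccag
Hk2: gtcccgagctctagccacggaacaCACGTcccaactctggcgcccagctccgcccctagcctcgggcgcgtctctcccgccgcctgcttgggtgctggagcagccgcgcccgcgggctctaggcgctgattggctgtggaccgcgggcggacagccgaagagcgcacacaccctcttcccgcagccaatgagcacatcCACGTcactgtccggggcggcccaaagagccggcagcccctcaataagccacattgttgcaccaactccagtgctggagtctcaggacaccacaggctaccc
Pgk1: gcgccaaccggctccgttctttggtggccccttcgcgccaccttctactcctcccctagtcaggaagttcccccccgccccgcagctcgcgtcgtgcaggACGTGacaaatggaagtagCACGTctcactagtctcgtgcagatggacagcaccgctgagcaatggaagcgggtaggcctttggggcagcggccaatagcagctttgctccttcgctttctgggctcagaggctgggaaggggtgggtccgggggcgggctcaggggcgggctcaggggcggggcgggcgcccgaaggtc
Slc16a3 held 2 matches, Slc2a1 1, Hk2 2, Pgk1 2 and Tpi1 none in its window. Over the list, 30 of 31 members had a window and 17 of these (56.7%) had a match in at least 1 of theirs, against 21.8% of all 27025 genes in the table. A gene could have more than 1 window. Counted by window, 45.7% of the 46 member windows held a match, against 19.6% of all 32851. The members and all genes were not matched for base composition, and its part in these shares was not tested. A match is a run of letters and says nothing of binding in these cells. Ldha and Pfkfb3 also held matches, with endothelial ratios of 0.80 and -0.06.

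Kupffer-like cells showed a smaller difference, centred on the lower pathway. After TNF, 4 of 19 members were over 2-fold higher in S/S and none over 2-fold lower, where 5.49% of all genes were over 2-fold higher and 6.94% over 2-fold lower. The members' median ratio was 0.44 and that of all genes -0.04. Eno1 was at 205, 75.0, 257 and 162 CPM in S/S TNF, A/A TNF, S/S baseline and A/A baseline, a ratio of 1.44 [1.08, 1.81] after TNF and 0.66 [0.35, 0.98] at baseline. Tpi1 was at 207, 79.2, 142 and 102 CPM in the same libraries, with ratios of 1.38 [1.02, 1.74] and 0.48 [0.06, 0.89]. For both genes A/A TNF was the lowest of the 4 libraries. Pgam1 was at 239, 117, 170 and 95 CPM, with ratios of 1.02 [0.71, 1.33] and 0.83 [0.43, 1.24]. Hk3 ran the other way, at 46.9, 75.9, 51.3 and 75.4 CPM, with ratios of -0.68 [-1.22, -0.16] and -0.55 [-1.14, 0.04].

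Slc16a3 in Kupffer-like cells was at 65.7, 11, 8.11 and 3.28 CPM in S/S TNF, A/A TNF, S/S baseline and A/A baseline, so S/S TNF stood apart, at a ratio to A/A TNF of 2.48 [1.65, 3.37]. These are 63, 13, 6 and 3 UMIs. Slc16a3 is abundant in monocyte-like cells (286 CPM in S/S TNF, 203 CPM in A/A TNF), and the 10 monocyte markers in Kupffer-like cells summed to 1902, 1058, 312 and 253 CPM, with none at 0 other than 2 of 10 in A/A baseline. In Kupffer-like barcodes with no monocyte-marker UMI the Slc16a3 ratio was 1.48, and those of Eno1, Tpi1 and Pgam1 were 1.52, 0.98 and 0.96. The 10 Kupffer markers summed to 11256, 14458, 14128 and 14514 CPM, but single markers differed between the genotypes. Clec4f was at 485, 1419, 697 and 2249 CPM, Vsig4 at 355, 684, 573 and 1424 CPM, and Marco at 1958, 3764, 1881 and 510 CPM. Kupffer-like barcodes held a median of 1917, 2200, 1433 and 2116 UMIs in S/S TNF, A/A TNF, S/S baseline and A/A baseline. The nuclear RNA Malat1 was at 5031, 2461, 1959 and 508 CPM in these libraries, higher in S/S both times. The part of Kupffer cell state, depth or barcode quality in these results was not tested. At baseline 1 of 17 members was over 2-fold higher in S/S (Eno3, at 17 and 10 UMIs in S/S and A/A) and 1 over 2-fold lower (Hk1, at 7 and 27 UMIs). Of all genes, 6.55% were over 2-fold higher and 11.5% over 2-fold lower. Gapdh was then at 1320 CPM in S/S baseline and 708 CPM in A/A baseline, a ratio of 0.90 [0.75, 1.04].

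In neutrophil-like cells hexokinase and lower glycolysis genes were higher in S/S. After TNF, 5 of 23 members were over 2-fold higher in S/S and none over 2-fold lower, against 2.22% and 2.79% of all genes. They were Hk2 (2.13 [1.86, 2.40]), Tpi1 (1.55 [1.37, 1.73]), Pdk1 (1.54 [1.09, 2.00]), Pfkp (1.49 [1.20, 1.77]) and Pgam1 (1.06 [0.93, 1.20]). Pdk1 was at 24.1 CPM in S/S TNF and 7.63 CPM in A/A TNF, and Pfkp at 64.7 and 22.4 CPM. Tpi1 stood at 171, 57.9, 66.4 and 23.0 CPM in S/S TNF, A/A TNF, S/S baseline and A/A baseline, so each S/S library was above the A/A library of its treatment. Pgam1 stood at 248, 118, 161 and 44.2 CPM in these libraries. Tpi1 (1.49 [0.59, 2.47]) and Pgam1 (1.84 [1.21, 2.52]) were the only members with at least 50 UMIs in both pairs of any class that were past 2-fold at both times. Slc2a1 and Slc16a3, far apart in endothelial-like cells, differed little here after TNF, by 0.31 [0.20, 0.41] and 0.12 [0.03, 0.22].

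At baseline 3 of 18 members were over 2-fold higher in S/S neutrophil-like cells, Tpi1, Pgk1 (99.6 CPM in S/S baseline, 38.9 CPM in A/A baseline) and Pgam1, and none over 2-fold lower. The shares of all genes were 10.6% and 4.32%, so the count of 3 lay near that background. Granule genes of immature neutrophils differed in the same direction as these members. Camp was at 1990 CPM in S/S TNF and 390 CPM in A/A TNF, and at 6676 CPM in S/S baseline and 3.53 CPM in A/A baseline. Ngp was at 2522 and 832 CPM after TNF and at 7125 and 3.53 CPM at baseline, S/S before A/A each time. All 11 neutrophil markers together summed to 175927, 163161, 124934 and 43004 CPM in S/S TNF, A/A TNF, S/S baseline and A/A baseline, with none at 0. The 10 monocyte markers summed in neutrophil-like cells to 797, 377, 1850 and 108 CPM, with 1, 1, 4 and 4 at 0. In the S/S libraries most of this was Chil3 and Ly6c2. Chil3 was at 496, 42.3, 1514 and 1.77 CPM, and Ly6c2 at 179, 151, 284 and 24.7 CPM. The part of cell maturity or monocyte RNA in the values of Tpi1, Pgk1, Pgam1 and Hk2 was not tested.

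Monocyte-like cells had the highest levels of Hk2, Aldoa, Pgk1, Pgam1, Eno1 and Pkm of the compared classes in both TNF libraries, and modest ratios. Only Pdk1, of 23 members compared after TNF, was over 2-fold higher in S/S, and none was over 2-fold lower, against 4.24% and 1.02% of all genes. Even so 18 of the 23 intervals lay above 0 and none below, and the members' median was 0.43 against -0.03 for all genes. Pdk1 was at 32.1 CPM in S/S TNF and 13.6 CPM in A/A TNF (1.18 [0.77, 1.60]). Hk1 was at 33.9 and 17.7 CPM in the same libraries (0.90 [0.53, 1.28]), Tpi1 at 479 and 272 CPM (0.82 [0.72, 0.92]) and Gpi1 at 266 and 165 CPM (0.69 [0.56, 0.81]). Pdha1 and Slc16a1 were not higher, at -0.21 [-0.44, 0.02] and -0.18 [-0.87, 0.51]. The 14 erythroid markers in these cells summed to 479 CPM in S/S TNF and 20.3 CPM in A/A TNF, with 4 and 5 at 0.

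Among lymphocytes, T cell-like cells followed the common pattern after TNF and B cell-like cells hardly did. In T cell-like cells 1 of 25 members was over 2-fold higher in S/S after TNF and none over 2-fold lower, against 3.34% and 2.97% of all genes, with a median of 0.38 against -0.01. That 1 was Slc16a3, at 14.8, 6.77, 6.31 and 2.70 CPM in S/S TNF, A/A TNF, S/S baseline and A/A baseline, with ratios of 1.02 [0.41, 1.61] after TNF and 0.98 [0.25, 1.70] at baseline. Tpi1 was at 138 CPM in S/S TNF and 71.1 CPM in A/A TNF (0.95 [0.75, 1.15]), and Pfkl at 45.7 and 25.6 CPM (0.81 [0.47, 1.15]). The 10 NK or ILC1 markers summed in T cell-like cells to 1906, 806, 1909 and 625 CPM in S/S TNF, A/A TNF, S/S baseline and A/A baseline, with 3, 1, 0 and 0 at 0. The 9 mature DC markers, which include the T and NK cell chemokine Ccl5, summed to 9147, 4010, 8159 and 1993 CPM. Their part in the T cell-like ratios was not tested. At baseline no member passed 2-fold in T cell-like cells, where 7.38% of genes were over 2-fold higher and 2.29% over 2-fold lower. Gapdh was then at 763 CPM in S/S baseline and 403 CPM in A/A baseline (0.92 [0.84, 0.99]), and Eno1 at 272 and 139 CPM (0.96 [0.83, 1.09]).

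In B cell-like cells no member passed 2-fold after TNF, where 2.19% of genes were over 2-fold higher and 2.96% over 2-fold lower, and the members' median was 0.09 against -0.07. Slc2a3 was at 21.0 CPM in S/S TNF and 35.4 CPM in A/A TNF (-0.73 [-1.44, -0.05]), and Pgk1 at 101 and 63.7 CPM (0.65 [0.26, 1.04]). At baseline the B cell-like median was 0.42 against 0.03, and Aldoc alone passed 2-fold, on 20 and 4 UMIs in S/S and A/A, where 4.57% of genes were over 2-fold higher and 1.84% over 2-fold lower. Gapdh was at 318 CPM in S/S baseline and 159 CPM in A/A baseline (0.99 [0.85, 1.14]). NK or ILC1-like cells had no member past 2-fold after TNF, where 2.92% of genes were over 2-fold higher and 4.46% over 2-fold lower. Their Ldha was at 471, 281, 237 and 115 CPM in S/S TNF, A/A TNF, S/S baseline and A/A baseline, so each S/S library stood above its A/A pair. At baseline 4 of their 17 members were over 2-fold higher in S/S and none over 2-fold lower, against 8.83% and 4.07% of all genes. They were Tpi1, Gapdh (537 CPM in S/S baseline, 214 CPM in A/A baseline, 1.32 [1.05, 1.60]), Pgam1 and Ldha.

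In pDC-like cells, which rested on about 50 cells per TNF library (54 in S/S and 50 in A/A), 2 of 20 members were over 2-fold higher in S/S after TNF and 1 over 2-fold lower, against 2.99% and 3.45% of all genes. Tpi1 was at 81.8, 25.1, 46.6 and 23.1 CPM in S/S TNF, A/A TNF, S/S baseline and A/A baseline, with ratios of 1.66 [0.97, 2.40] after TNF and 0.98 [0.38, 1.60] at baseline. Ldhb was the other gene higher after TNF, and Hk1 was the lower one, on 5 UMIs in S/S TNF and 20 in A/A TNF. At baseline none of 23 members was over 2-fold higher and 1 over 2-fold lower, where 4.1% and 1.56% of all genes were. That gene was Slc2a1, at 7.16 CPM in S/S baseline and 17.7 CPM in A/A baseline (-1.19 [-2.24, -0.19]).

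Hepatocyte-like cells had the highest Gapdh and Ldha of the compared classes and, after TNF, ratios close to those of all genes, with a median of 0.16 against 0.04. Of 18 members 3 were over 2-fold higher in S/S and none over 2-fold lower, against 10.5% and 4.31% of all genes. They were Pkm, Slc16a3 and Pfkp, which are better known from other cell types than from hepatocytes. Pkm was at 57.5 CPM in S/S TNF and 12.7 CPM in A/A TNF (2.09 [1.24, 3.01]), and Pfkp had 26 UMIs in S/S TNF and 0 in A/A TNF, at least 9.44-fold higher against a floor of 3 UMIs in the A/A library. In hepatocyte-like cells the 10 monocyte markers summed to 196 CPM in S/S TNF and 131 CPM in A/A TNF, with none at 0 in either. The 14 erythroid markers summed to 10629 and 196 CPM, with 2 and 7 at 0. Hepatocyte-like barcodes held a median of 1124, 1561.5, 1141 and 1514 UMIs in S/S TNF, A/A TNF, S/S baseline and A/A baseline. Malat1 was at 3054, 623, 1560 and 850 CPM in these libraries. The part of RNA from other cells, depth or barcode quality in Pkm, Slc16a3 and Pfkp was not tested. At baseline, 2 of 15 members were over 2-fold higher, Aldoa and Ldha, and 2 over 2-fold lower, Pklr and Pdk1, against 17.6% and 9.39% of all genes. Ldha was then at 668 CPM in S/S baseline and 319 CPM in A/A baseline (1.06 [0.82, 1.31]).

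TNF against baseline was compared within each genotype, but both TNF libraries were counted with one software version and both baseline libraries with another, so treatment and version cannot be told apart. Slc2a1 was higher after TNF in myeloid and endothelial-like cells. In neutrophil-like cells its ratio was 1.98 [1.56, 2.44] in S/S and 1.33 [0.94, 1.74] in A/A, and in Kupffer-like cells it had 41 UMIs in S/S TNF against 1 in S/S baseline, and 46 in A/A TNF against 6 in A/A baseline. The direction for Pfkfb3 depended on the cell class. It was higher after TNF in hepatocyte-like cells, at 105 CPM in S/S TNF against 7.26 in S/S baseline, and at 75.2 CPM in A/A TNF against 1.13 in A/A baseline. It was also higher in Kupffer-like cells of both genotypes (1.34 [0.54, 2.20] in S/S, 1.58 [0.70, 2.54] in A/A) and in endothelial-like cells of A/A (1.79 [1.26, 2.38]). In T cell-like cells it was lower, at 14.3 CPM in S/S TNF against 40.1 in S/S baseline and 13.2 CPM in A/A TNF against 72.5 in A/A baseline. NK or ILC1-like cells held it at 4.66 CPM in S/S TNF against 43.3 in S/S baseline, and at 5.58 CPM in A/A TNF against 60.7 in A/A baseline.

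By count alone, neutrophil-like cells had most members past 2-fold after TNF, in a class where many of all genes compared were past it too. There 6 of 22 members were over 2-fold higher and 3 lower in S/S, against 10.9% and 41.3% of all genes, and 8 of 23 higher and 3 lower in A/A, against 16.3% and 33.2%. Pfkl was at 71.9 CPM in S/S TNF against 11.6 in S/S baseline and at 47.6 CPM in A/A TNF against 7.06 in A/A baseline. Hk3 was lower after TNF in both, by -1.78 [-2.16, -1.40] in S/S and -1.41 [-1.83, -0.98] in A/A. Hk2 was lower in A/A alone (-1.98 [-2.44, -1.49]; S/S 0.21). Kupffer-like cells had 6 of 19 higher and 1 lower in S/S, against 22.4% and 13.7% of all genes, and 3 of 18 higher and 2 lower in A/A, against 18.9% and 13.3%. Endothelial-like cells of A/A had 6 of 21 higher and 1 lower, against 22.4% and 17.9%. Hepatocyte-like cells had 5 of 17 higher and 0 lower in S/S, against 18% and 6.61%, and 3 of 17 higher and 2 lower in A/A, against 19.4% and 6.57%.

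Among the lymphoid classes, NK or ILC1-like cells had the most members past 2-fold. These cells had 6 of 19 members higher and 2 lower in S/S, against 4.37% and 19.5% of all genes, and 8 of 18 higher and 2 lower in A/A, against 11.8% and 19.7%. T cell-like cells had 2 of 25 higher and 2 lower in S/S, against 3.05% and 19.7%, and 1 of 25 higher and 1 lower in A/A, against 5.44% and 16.9%. B cell-like cells had 0 of 23 higher and 1 lower in S/S, against 3.89% and 22.2%, and 5 of 21 higher and 1 lower in A/A, against 8.3% and 21.8%. Among the 5 was Ldha, at 191 CPM in A/A TNF against 49.0 CPM in A/A baseline. In pDC-like cells 4 of 22 were higher and 2 lower in S/S, against 4.05% and 21.1%, and 2 of 22 higher and 2 lower in A/A, against 6.16% and 18.6%. Monocyte-like cells of S/S had 4 of 26 higher and 4 lower, against 8.95% and 24.8%. The 4 higher genes were Slc2a1, Ldha, Slc16a3 and Pdk1. Slc16a3 was at 286 CPM in S/S TNF against 95.4 CPM in S/S baseline (1.57 [1.38, 1.77]). Erythroid-like cells of S/S had none of 14 past 2-fold, against 3.7% and 20.9%.

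Genes of neighbouring pathways had smaller median ratios than the members in all 9 classes after TNF and in 4 of 7 at baseline. Of 49 further genes listed for other transporters, glycogen, the pentose phosphate route, gluconeogenesis, pyruvate entry and the hypoxia factors, 48 were found. In endothelial-like cells after TNF their median ratio was 0.18 over 30 compared, against 1.31 for the members, with 3 over 2-fold higher and 0 lower. One of the 3 was Hif1a, the oxygen-regulated transcription factor subunit, at 755 CPM in S/S TNF and 362 CPM in A/A TNF (1.06 [0.97, 1.14]). Rpia, of the pentose phosphate route, was at 13.1 and 22.6 CPM (-0.75 [-1.24, -0.26]). In Kupffer-like cells their median after TNF was 0.11 over 24 compared, with 3 higher and 2 lower, and in neutrophil-like cells 0.01 over 25, with 3 higher and 1 lower. Pgm1, which links glucose 6-phosphate to glycogen, was at 13.8 CPM in S/S TNF and 2.84 CPM in A/A TNF neutrophil-like cells and at 19.9 and 3.59 CPM in monocyte-like cells. Gys1, the glycogen synthase, was at 22.3 and 9.12 CPM in neutrophil-like cells of the same libraries.

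In the remaining classes after TNF the further genes had medians of 0.07 in monocyte-like cells (30 compared, 2 higher, 0 lower), 0.10 in T cell-like cells (33, 3 higher, 1 lower), 0.04 in B cell-like cells (22, 1 and 1), 0.08 in NK or ILC1-like cells (24, 1 and 0), -0.11 in pDC-like cells (20, 1 and 0) and 0.07 in hepatocyte-like cells (30, 3 and 1). Hif1a was also higher in T cell-like cells, at 232 CPM in S/S TNF and 108 CPM in A/A TNF. Pck1, the entry enzyme of gluconeogenesis, was at 287 CPM in S/S TNF and 555 CPM in A/A TNF hepatocyte-like cells (-0.95 [-1.16, -0.74]). Like Fbp1, it was lower in S/S after TNF. Bpgm, which makes the haemoglobin ligand 2,3-bisphosphoglycerate in red cells, was among the genes higher in S/S in most classes, at 63.6 CPM in S/S TNF and 1.69 CPM in A/A TNF Kupffer-like cells, where the erythroid markers summed to 1729 and 169 CPM. At baseline the further genes' medians were -0.01 in Kupffer-like (21 compared, 1 over 2-fold higher, 1 lower) and 0.13 in neutrophil-like cells (20, 6 and 1). They were 0.12 in pDC-like (26, 1 and 1), 0.16 in B cell-like (33, 2 and 0) and 0.17 in T cell-like cells (32, 2 and 0). In NK or ILC1-like cells the median was 0.45 (20, 2 and 1), and in hepatocyte-like cells 0.55 (26, 5 and 6). The shares of all genes past 2-fold are given above for each class and time.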

How the data were processed

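Liver cells in 4 single-cell libraries (10x 3' v3.1), 1 per group, were counted by the authors with Cell Ranger against mm39, per the submitters' processing notes. The deposited values are raw UMI counts per gene and barcode. Per the file headers, version 6.1.2 made both TNF tables and 7.1.0 both baseline tables. Whether introns were counted is not given in the sources used here. The members and lists were chosen with earlier results of these data known.

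Barcodes under 300 genes or over 20% mitochondrial UMIs were dropped, which left 5528, 6452, 4366 and 2830 in S/S TNF, A/A TNF, S/S baseline and A/A baseline (median 6504.5, 5866, 5507 and 4723.5 UMIs). A barcode joined the class of which it showed most markers, as a share of the list, if it had at least 3 of them and no other class passed 0.5 of that share. This rule was set after the files were seen. Of 155 markers for 16 classes, 154 were found. No doublet caller was run, and the rule leaves out barcodes with mixed markers. UMIs were summed per class with at least 50 cells per library and scaled to CPM. Log2 ratios used a pseudocount of 1 CPM and at least 20 UMIs in the pair, with exact binomial intervals for ratios and shares and exact Poisson intervals for levels, at 95%. A fold against 0 used a floor of 3 UMIs. No test was run, since each group held 1 library.

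Members were named by size: up to 4 per class and comparison with the largest absolute log2 ratio among those with at least 50 UMIs in the pair, the leading isozyme of each family, and members past 2-fold at both times. Other members and genes given values were picked afterwards for their step in the pathway. Promoters came from RefSeq (GRCm38.p6); Slc2a3 had no window. The calculation was tested on simulated data. Alternatives covered scaling, filters, pseudocount, gate, cell weight, depth and single barcodes. Computation used scipy 1.17.1, numpy 2.4.6, pandas 2.3.3 and matplotlib 3.10.9 under Python 3.11.15.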

Additional observations from a re-analysis of the deposited data

Results flagged for a closer look

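In 5 cases a member had intervals on opposite sides of 0 in matched contrasts, and the difference between the contrasts was not tested. In neutrophil-like cells Gpi1 was lower in S/S after TNF (log2 ratio -0.18) and higher at baseline (0.47). Slc16a3 in the same cells was higher in S/S after TNF (0.12) and lower at baseline (-0.36). In hepatocyte-like cells Fbp1 was lower in S/S after TNF (-0.48) and higher at baseline (0.43). Read as TNF against baseline, Fbp1 was -0.23 in S/S and 0.68 in A/A. Pdk3 in neutrophil-like cells was -1.42 after TNF in S/S and 3.13 in A/A, where A/A baseline held 0 UMIs of Pdk3, so the A/A value depends on the pseudocount.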

How the results depend on the processing

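No paired analysis was possible because each group had 1 library. The count of members over 2-fold in S/S against A/A at baseline in Kupffer-like cells was 2 as reported and 1 under each of 5 settings: a class total without mitochondrial genes, Rn18s-rs5 and globins, a pseudocount of 10 CPM, the mean of each cell's CPM, a looser gate, and barcodes with no monocyte-marker UMI. The last 2 settings, and the split of endothelial-like cells at 5000 UMIs, were chosen after seeing the data. The signs that turned were those of the pDC-like median at baseline (-0.026, all genes -0.02) without mitochondrial genes, Rn18s-rs5 and globins, the hepatocyte-like median after TNF (-0.051, all genes -0.05) in cells thinned to 1000 UMIs, and Ldha at baseline in NK or ILC1-like cells (-0.21) when thinned. Thinning left out 184 hepatocyte-like cells of S/S TNF and 114 of A/A TNF. The cause was not tested. The endothelial-like median after TNF ran from 1.02 to 1.31 and the Kupffer-like median from 0.37 to 0.57 after TNF and from 0.20 to 0.59 at baseline. Of 26 named ratios past 2-fold, 18 stayed past it with a pseudocount of 10 CPM and 25 with a gate of 4 markers. Few UMIs per class limit Eno2, Pfkfb2, Pfkm and Pklr.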
